A study of Homo sapiens with 9 samples.

Results

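IRS4 and 8 further genes of the insulin and IGF receptor pathway (IRS1, IRS2, INSR, IGF1R, IGF2R, PIK3CA, PIK3R1 and PIK3R3) were followed by gene name through a count table of 58735 genes, and all 9 were found. IRS4 was picked because its level separated the groups, so its values are a description and carry no test. The other 8 were listed with results of these data in view, and their tests describe them without supporting a pattern. The labels give the cells as PANC-1, an established cell line from a human pancreatic carcinoma. CDKN2A reads in both knockout groups, given below, differ from that label. 3 libraries were made for each of 3 groups: ACSS2-KO-2 and ACSS2-KO-3, both titled as knockouts of ACSS2, the enzyme that makes acetyl-CoA from acetate in the cytosol and nucleus, and NC, to which they were compared. The titles do not say whether the 2 and the 3 stand for guides, clones or pools, nor what NC stands for, and no further treatment is given. The labels do not tell whether replicate libraries stem from separate cultures, and without that the p-values speak only of a spread that may be technical.

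Insulin and the insulin-like growth factors bind receptor tyrosine kinases, INSR and IGF1R, which phosphorylate the insulin receptor substrates (IRS proteins). These docking proteins recruit class I phosphoinositide 3-kinase (PI3K), a dimer of a catalytic and a regulatory subunit. Its lipid product recruits and activates AKT, which promotes protein synthesis and glucose uptake and keeps FOXO transcription factors out of the nucleus. IRS1 and IRS2 are made in most tissues. IRS4 has a narrow range of normal expression and was first cloned from HEK293, a human embryonic kidney line, where it is abundant. IGF2R, the cation-independent mannose 6-phosphate receptor, carries IGF2 to lysosomes and has no kinase.

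The start of IRS4 is shown first because the results turn on its appearance, with that of IRS2 for comparison. RefSeq windows on GRCh38.p14 were found for all 9 genes, and the 250 bases before each start were read. IRS4 had 2 windows, PIK3R1 4, PIK3R3 6 and each other gene 1. The IRS4 window printed was picked by its matches to the letters searched here, and on a tie by the lower position. Capitals mark TTGTTTTG, 8 letters that the IRS4 and IRS2 windows share and that were picked after the sequences were seen. The printed window of IRS4 lies at chrX:108736378-108736627 on the minus strand and holds the letters from 132 bases before its start. RefSeq places this start 32 bases inside the gene as annotated for the counts. The window of IRS2 lies at chr13:109786584-109786833 on the minus strand and holds them from 41 bases before the start.
IRS4: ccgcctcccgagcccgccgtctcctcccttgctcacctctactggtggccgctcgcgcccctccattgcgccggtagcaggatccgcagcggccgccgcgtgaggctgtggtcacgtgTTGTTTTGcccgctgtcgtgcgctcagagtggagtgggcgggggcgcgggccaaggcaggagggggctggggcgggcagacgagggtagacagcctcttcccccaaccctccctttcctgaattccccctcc
IRS2: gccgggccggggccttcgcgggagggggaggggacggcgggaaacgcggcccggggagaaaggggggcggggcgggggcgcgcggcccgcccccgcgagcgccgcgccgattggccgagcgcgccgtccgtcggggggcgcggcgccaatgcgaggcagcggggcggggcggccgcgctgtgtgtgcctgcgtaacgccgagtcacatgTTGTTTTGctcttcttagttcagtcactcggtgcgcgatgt
Searched on both strands (reverse CAAAACAA), these letters stood in 1.46% of 35116 windows of the same length and in those of 1.81% of 27305 genes, and among the 9 genes in those of IRS4 and IRS2. TGTTTAC (reverse GTAAACA), letters of the kind that forkhead factors such as FOXO bind, stood in 2.98% of windows and in those of 3.66% of genes, and among the 9 in that of PIK3CA. The 30 bases around it, at chr3:179148197-179148226 on the plus strand, hold the match from 149 bases before the RefSeq start. This start, at 179148357, lies 243 bases inside PIK3CA as the annotation of the counts places it, so the stretch is within the gene by that annotation.
PIK3CA: agttcgttgttTGTTTACacgatgtgagcg
A match is a description of letters, not of a bound site.

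Library totals ran from 14756572 to 17457190 counts, and a count of 0 in a library allows up to 3 counts, which is 0.172 to 0.206 counts per 1000000 (CPM). These limits cover counting error only. ACSS2 averaged 14.1 ± 1.45 CPM in ACSS2-KO-2, 8.09 ± 0.779 CPM in ACSS2-KO-3 and 30.7 ± 2.53 CPM in NC (SD, n = 3 each), and every knockout library lay under every NC library. Of 15811 genes tested, 6.65% differed in ACSS2-KO-2 against NC, 63.3% in ACSS2-KO-3 against NC and 61.7% in ACSS2-KO-2 against ACSS2-KO-3 (edgeR quasi-likelihood test, Benjamini-Hochberg adjusted p under 0.05 over all tested genes, the rule for each call below). Of 6 genes typical of this carcinoma line, the keratins KRT8, KRT18 and KRT19 and VIM were read at 296 CPM or more in each group mean, and KRT7 and EPCAM at 5.60 to 9.33 CPM. EPCAM averaged 8.46 ± 0.811 CPM in ACSS2-KO-2, 5.60 ± 0.367 CPM in ACSS2-KO-3 and 9.33 ± 0.205 CPM in NC. In ACSS2-KO-2 against NC 1 of the 6 (KRT19) was higher and 1 (VIM) lower, and in ACSS2-KO-3 3 (KRT8, KRT18 and KRT19) were higher and 1 (EPCAM) lower, or 2 and 1 with offsets for GC content and transcript length. The summed acinar and islet markers reached no more than 0.196 CPM in a library. Fold changes of ACSS2-KO-3 against NC followed GC content, with a Spearman correlation of 0.495 across 15804 genes, which are not independent replicates, against 0.00138 for ACSS2-KO-2. The correlation was -0.0142 once GC content and transcript length entered the fit as offsets, and values with these offsets are given beside most ACSS2-KO-3 fold changes below.

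IRS4 was read in all 3 ACSS2-KO-2 libraries, at a low level in all 3 ACSS2-KO-3 libraries and in no NC library. The gene (ENSG00000133124) lies on the minus strand of chromosome X at 108732482 to 108736409 (GRCh38). The 3 ACSS2-KO-2 libraries had 194, 168 and 194 counts, the 3 ACSS2-KO-3 libraries 8, 17 and 9 counts, and each NC library 0. Scaled, ACSS2-KO-2 stood at 11.1, 11.05 and 11.7 CPM and ACSS2-KO-3 at 0.523, 1.03 and 0.617 CPM. The groups did not overlap, and the ACSS2-KO-2 libraries lay close together. The group levels were 11.3 ± 0.355 CPM in ACSS2-KO-2 and 0.724 ± 0.272 CPM in ACSS2-KO-3 (SD, n = 3 each). Against the mean NC floor of 3 counts per library, IRS4 was at least 60.4-fold higher in ACSS2-KO-2 and at least 3.88-fold higher in ACSS2-KO-3. The level in ACSS2-KO-3 was 6.42% of that in ACSS2-KO-2. Leaving out each library in turn or changing the scaling gave means of 11 to 11.4 CPM in ACSS2-KO-2 and 0.576 to 0.834 CPM in ACSS2-KO-3.

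**Figure D1:**
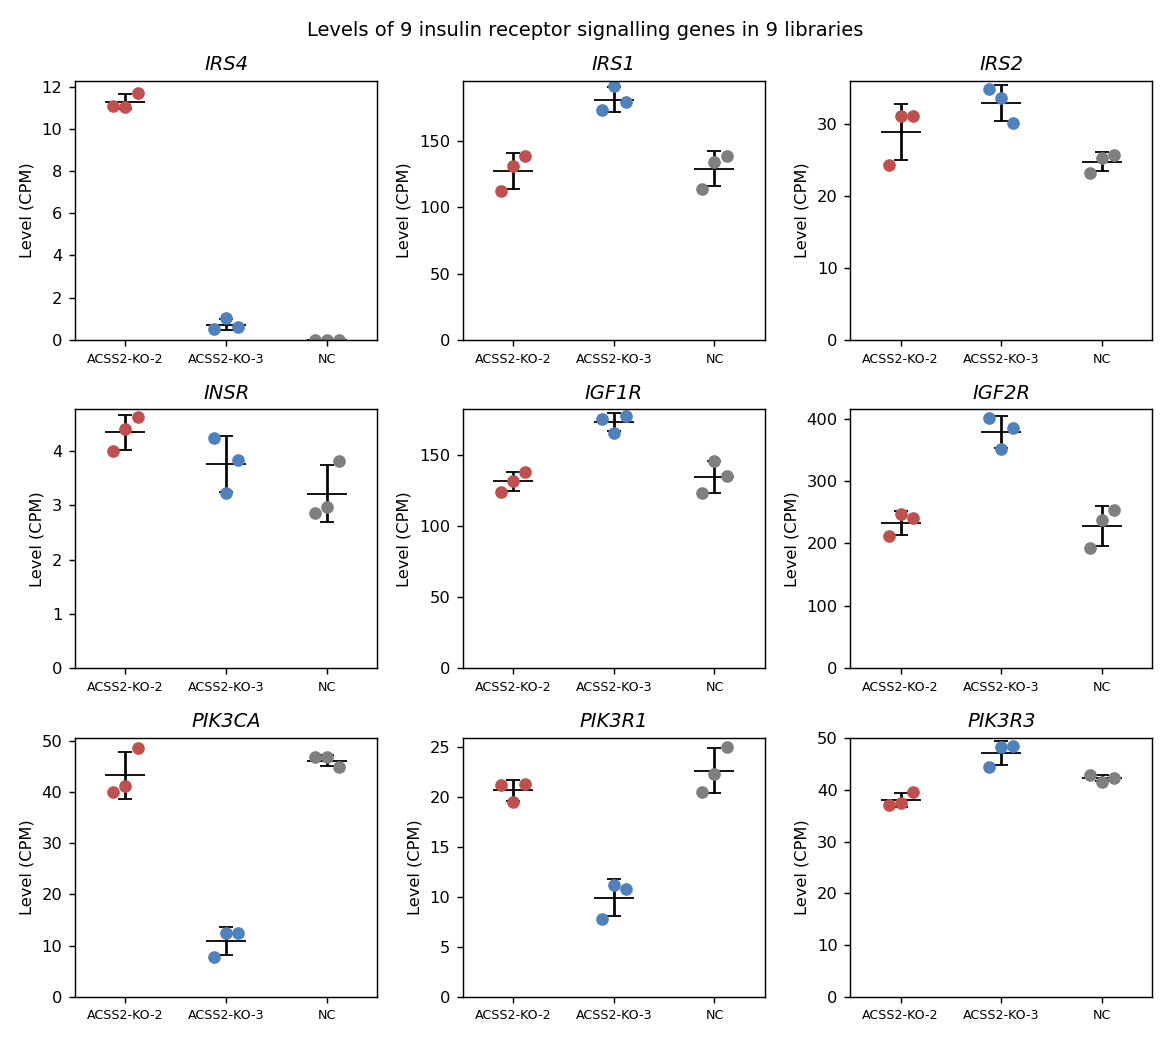
Levels of the 9 genes (CPM, linear axes from 0) in each library of ACSS2-KO-2, ACSS2-KO-3 and NC, with points for libraries and a bar for the group mean. IRS4 sits near 11 CPM in ACSS2-KO-2 and at 0 in NC, IGF2R and IRS1 are highest in ACSS2-KO-3, and PIK3CA and PIK3R1 are lowest there.

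Among the IRS transcripts IRS4 took a minor share even where it was read. Scaled by transcript length, IRS4 made up 16.5, 14.2 and 14.3% of the summed IRS1, IRS2 and IRS4 level in the ACSS2-KO-2 libraries and 0.611, 1.11 and 0.719% in the ACSS2-KO-3 libraries. IRS1 held 66.0 to 67.2% in ACSS2-KO-2, 79.7 to 82.4% in ACSS2-KO-3 and 80 to 81.5% in NC. IRS2 held 17.5 to 19.3% in ACSS2-KO-2, 16.9 to 19.7% in ACSS2-KO-3 and 18.5 to 20% in NC. In ACSS2-KO-2, IRS4 therefore stood near IRS2, at 0.819 ± 0.110 of its level per length, and well under IRS1, at 0.226 ± 0.0215 (SD, n = 3 libraries).

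The transcripts next to IRS4 on chromosome X appeared with it. Of 29 annotated genes within 1000000 bases, IRS4 included, 8 had no count in any library, 11 were tested, and 7 were at 0 in NC with at least 1 count in ACSS2-KO-2. The genes described here were chosen after their values were seen. AL035425.3, an unnamed transcript on the same strand 7538 bases downstream of IRS4, had 296, 227 and 217 counts in the ACSS2-KO-2 libraries, 7, 10 and 2 counts in the ACSS2-KO-3 libraries, and 0 in NC. It was at least 80.2-fold higher in ACSS2-KO-2 and at least 2.15-fold higher in ACSS2-KO-3 than the NC floor. AL035425.4, 5534 bases downstream, had 27, 23 and 35 counts in ACSS2-KO-2, 1 count over the ACSS2-KO-3 libraries and none in NC. It was at least 9.22-fold higher in ACSS2-KO-2 than the NC floor. AL035425.1, annotated antisense across the start of IRS4, had 6, 4 and 7 counts in ACSS2-KO-2 and 0 in the 6 other libraries. The strand setting of the counting is not given in the sources used here, so reads of AL035425.1 and of IRS4 may not be told apart.

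Of the tested genes farther out, COL4A5 and TSC22D3 also passed in ACSS2-KO-2, where 6.65% of all tested genes did, and both were expressed in NC. COL4A5, a collagen of basement membranes 34937 bases from IRS4, averaged 15.7 ± 1.72 CPM in ACSS2-KO-2, 6.74 ± 0.766 CPM in ACSS2-KO-3 and 11.4 ± 0.99 CPM in NC. Its log2 fold change against NC was 0.46 in ACSS2-KO-2 (edgeR adjusted p 0.0124), a rise, and -0.75 in ACSS2-KO-3 (1.19e-05; -0.86 with the offsets), a fall. TSC22D3, a glucocorticoid-induced gene 955140 bases away, averaged 22.8 ± 0.683 CPM in ACSS2-KO-2, 9.29 ± 0.719 CPM in ACSS2-KO-3 and 15.3 ± 1.06 CPM in NC. Its log2 fold changes were 0.57 (edgeR adjusted p 0.00012) and -0.72 (1.12e-06; -0.86 with the offsets). The 6 other tested neighbours, MID2, PSMD10, ATG4A, COL4A6, NXT2 and ACSL4, did not pass in ACSS2-KO-2 against NC, with edgeR adjusted p from 0.383 to 0.992. In ACSS2-KO-3 against NC 3 of these 6 passed, in a comparison in which 63.3% of all tested genes did. PSMD10 (0.35, edgeR adjusted p 1.45e-06) and ATG4A (0.26, 0.0138) passed there only with the offsets. ACSL4, which activates long polyunsaturated fatty acids, fell by 1.49 there (edgeR adjusted p 3.2e-15), and with the offsets by 0.60. NXT2, an RNA export factor, had a log2 fold change of -0.59 (edgeR adjusted p 2.64e-06) that turned to 0.53 with the offsets, and that of MID2, a ubiquitin ligase, was 0.33 (0.00712) and no longer passed with them (0.20, 0.103).

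**Figure D2:**
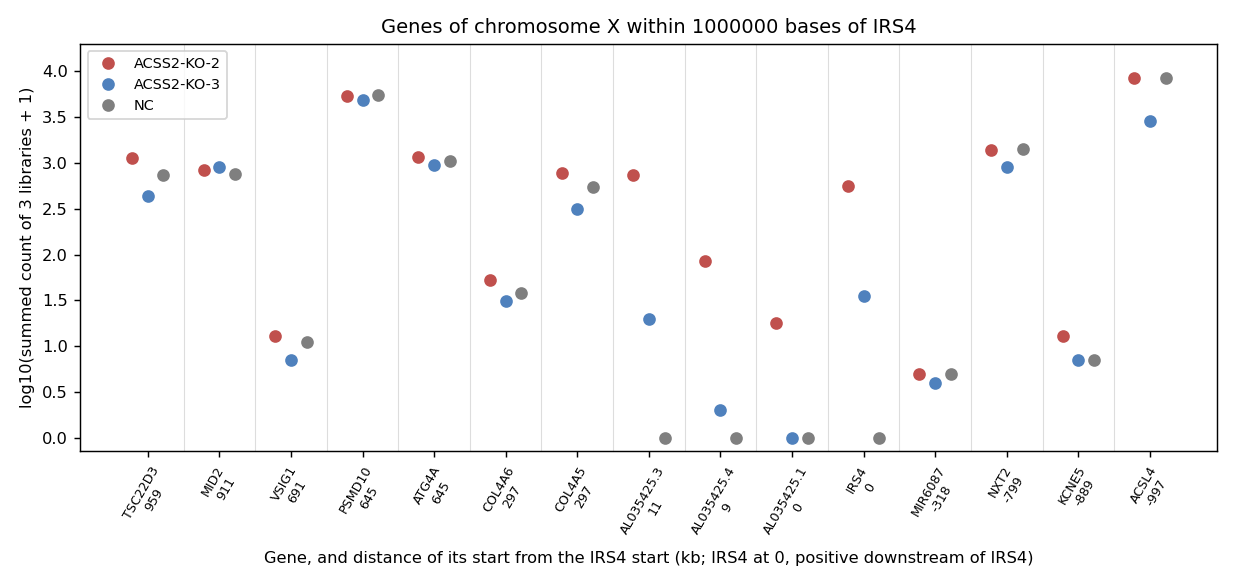
Summed counts of the 3 libraries of each group, as log10(count + 1), for genes near IRS4 with at least 10 counts in all, in order of position, with the distance of each start from the IRS4 start in kb under the name. IRS4, AL035425.3, AL035425.4 and AL035425.1 are at 0 in NC and above 0 in ACSS2-KO-2, while genes on either side are read in all 3 groups.

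IRS4 belonged to a set of transcripts with the same order of groups. Of the tested genes, 39 had no count in NC and at least 1 CPM in ACSS2-KO-2, and IRS4 ranked behind only AL035425.3 and CDKN2A among them by level in ACSS2-KO-2. Their median level in ACSS2-KO-3 was 3.80% of that in ACSS2-KO-2, with quartiles of 2.19 and 5.93%, against 6.42% for IRS4. These genes were chosen by their level, so this is a description. The 5 genes most like IRS4, by Pearson correlation of log2 CPM over the 9 libraries among 14601 tested genes that reached 1 CPM in a group, were HOXA10 (0.998), CDKN2A (0.996), SLIT2 (0.995), FBN2 (0.99) and AUTS2 (0.988). The 9 points fall into 3 groups, so each value mainly repeats the order of the groups. HOXA10, a homeobox factor, averaged 3.78 ± 0.558 CPM in ACSS2-KO-2 and 0.385 ± 0.0878 CPM in ACSS2-KO-3 and had no count in NC. SLIT2, a guidance ligand, had 3.69 ± 0.257 CPM in ACSS2-KO-2, 0.537 ± 0.184 CPM in ACSS2-KO-3 and no count in NC. FBN2, an extracellular fibrillin, had 4.10 ± 0.446 CPM in ACSS2-KO-2, 0.317 ± 0.175 CPM in ACSS2-KO-3 and no count in NC. AUTS2, a chromatin-associated gene of neural development, was read in NC, with 13 counts over the 3 libraries.

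CDKN2A, which encodes the cell cycle inhibitor p16, bears on the label of the cells. As background, the PANC-1 line is known to lack CDKN2A through a homozygous deletion. CDKN2A (chromosome 9) had 700 counts in ACSS2-KO-2, 33 in ACSS2-KO-3 and 0 in NC, or 14.2 ± 0.593 CPM in ACSS2-KO-2 and 0.707 ± 0.198 CPM in ACSS2-KO-3. It was thus at least 76.0-fold higher in ACSS2-KO-2 and at least 3.78-fold higher in ACSS2-KO-3 than the NC floor. The ACSS2-KO-2 libraries, and at a low level the ACSS2-KO-3 libraries, thereby differ from what their cell line label gives. No library of either group is free of this, so IRS4 cannot be given without them.

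A list of 10 genes known from HEK293 cells (CDKN2A, UCHL1, HOXA9, HOXA10, HOXD13, PAX2, LIN28B, NEFL, NEFM and INA) was set beside IRS4. Several of them were known from earlier results of these data to be high in ACSS2-KO-2, so the list is not independent. Those at 0 in NC could pass the low-count filter only through ACSS2-KO-2, so they are described by level and their calls are not counted. In ACSS2-KO-3 UCHL1 and HOXD13 lay close to the NC floor, at least 1.12- and 1.28-fold above it. PAX2 was lower in ACSS2-KO-2 than in NC (-0.27, edgeR adjusted p 0.00772). Its rise in ACSS2-KO-3 (0.26, edgeR adjusted p 0.000666) no longer passed with the offsets (0.04, 0.535). LIN28B was higher in ACSS2-KO-2 than in NC (0.54, edgeR adjusted p 0.0297). In ACSS2-KO-3 it fell by 1.70, and with the offsets by 0.88. Of the 10, 7 were at 0 in all NC libraries and NEFM had 2 counts there. PAX2, a kidney factor, and LIN28B, an RNA-binding protein of early development, were expressed in NC, at 62.9 ± 3.82 and 6.11 ± 0.718 CPM. The summed level of the other 8 was 30.0 to 35.2 CPM in the ACSS2-KO-2 libraries, 1.71 to 2.25 CPM in the ACSS2-KO-3 libraries and 0 to 0.129 CPM in the NC libraries. The whole list summed to 89.4 to 97.6 CPM in ACSS2-KO-2, 75.6 to 81.6 CPM in ACSS2-KO-3 and 65.6 to 71.9 CPM in NC.

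The ratio of ACSS2-KO-3 to ACSS2-KO-2 differed between these genes. It was 4.98% for CDKN2A, 4.3% for UCHL1, a neuronal deubiquitinase, 7.59% for HOXD13, 10.2% for HOXA10 and 19.7% for HOXA9, homeobox factors, beside 6.42% for IRS4. The neurofilament genes were lower, at 2.1% for NEFL and 0.965% for NEFM, with 1 count each in ACSS2-KO-3, and INA, with 40 counts in ACSS2-KO-2, had none in ACSS2-KO-3. The 2 genes expressed in NC were higher in this ratio, at 21.0% for LIN28B and 144% for PAX2. These ratios hold no correction for GC content. With the offsets the log2 fold change of ACSS2-KO-2 against ACSS2-KO-3 moved from 2.24 to 1.41 for LIN28B and from -0.53 to -0.33 for PAX2. UCHL1, HOXD13, HOXA10 and HOXA9 had only 10 to 20 counts each over the ACSS2-KO-3 libraries, so their ratios carry counting error. The part of other cells in the IRS4 result was not tested. In bulk libraries, few cells with much IRS4 RNA and many cells with little cannot be told apart.

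**Figure D3:**
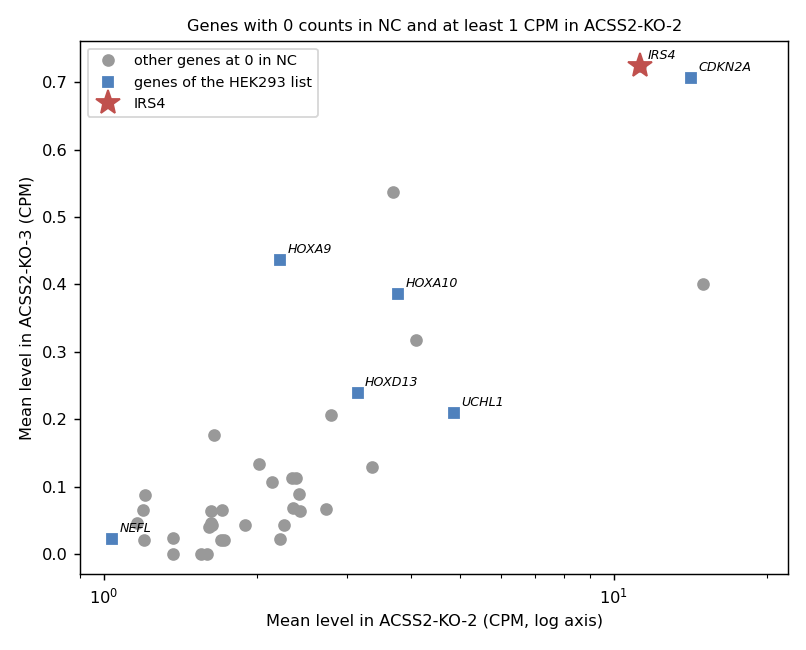
Mean level in ACSS2-KO-3 (CPM) against mean level in ACSS2-KO-2 (CPM, log axis) for the 39 genes with no count in NC and at least 1 CPM in ACSS2-KO-2, with IRS4 as a star and genes of the HEK293 list as squares. IRS4 lies at 11.3 CPM in ACSS2-KO-2 and 0.724 CPM in ACSS2-KO-3, next to CDKN2A at 14.2 and 0.707 CPM.

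Of the 8 other genes, none passed in ACSS2-KO-2 against NC, 7 passed in ACSS2-KO-3 against NC and 6 in ACSS2-KO-2 against ACSS2-KO-3. The first count stands against 6.65% of all tested genes, 3.81% higher and 2.84% lower. At an unadjusted p under 0.05, 3 of the 8 (IRS2, INSR and PIK3R3) passed in ACSS2-KO-2 against NC with edgeR and with limma-voom and 2 with DESeq2, and with either of these tools 0 passed after adjustment. In ACSS2-KO-3 against NC, 5 were higher and 2 lower, against 31.2% higher and 32.1% lower of all tested genes. In ACSS2-KO-2 against ACSS2-KO-3, 2 were higher and 4 lower, against 30.5% and 31.2%. The shares of 7 and 6 of 8 thus lie near or above those of 63.3% and 61.7% of all genes, and nothing particular to the pathway is read from them. The median log2 fold changes were -0.03 in ACSS2-KO-2 against NC, 0.29 in ACSS2-KO-3 against NC and -0.25 in ACSS2-KO-2 against ACSS2-KO-3, beside 0.00, -0.04 and 0.02 over all tested genes. With the offsets the medians of the comparisons with ACSS2-KO-3 were 0.23 and -0.24, beside 0.05 and -0.05. The libraries of the 2 groups did not overlap for 2 of the 8 genes in ACSS2-KO-2 against NC, against 24.8% of all tested genes, for 7 in ACSS2-KO-3 against NC (66.9%) and for 6 in ACSS2-KO-2 against ACSS2-KO-3 (65.9%). Both knockout groups were set against the same 3 NC libraries.

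IRS1 and IRS2, the widely expressed docking proteins, were higher in ACSS2-KO-3. IRS1 (ENSG00000169047, chromosome 2, 226731317 to 226799759) measured 112, 131 and 139 CPM in ACSS2-KO-2, 173, 191 and 179 CPM in ACSS2-KO-3, and 114, 134 and 138 CPM in NC. The 3 ACSS2-KO-3 libraries lay above the 6 others, while ACSS2-KO-2 and NC overlapped. IRS1 rose by a log2 fold change of 0.49 in ACSS2-KO-3 against NC (SE 0.071, edgeR adjusted p 1.01e-06) and by 0.44 with the offsets (1.48e-08), and its value in ACSS2-KO-2 against NC was -0.02 (adjusted p 0.927). IRS2 (ENSG00000185950, chromosome 13, 109752698 to 109786568) measured 24.4, 31.1 and 31.1 CPM in ACSS2-KO-2, 34.9, 33.7 and 30.1 CPM in ACSS2-KO-3, and 23.3, 25.2 and 25.8 CPM in NC. Its ACSS2-KO-3 libraries lay above NC, and its ACSS2-KO-2 libraries overlapped both groups. IRS2 rose by 0.41 in ACSS2-KO-3 (SE 0.090, edgeR adjusted p 0.000279) and by 0.27 with the offsets (0.00548). In ACSS2-KO-2 its value was 0.22 (edgeR adjusted p 0.171). Without ACSS2-KO-2 replicate 1, whose level was the lowest of its group, that value was 0.33 and passed (adjusted p 0.0228). Per length, IRS1 stood at 12.8, 18.2 and 13.0 CPM per kb in ACSS2-KO-2, ACSS2-KO-3 and NC, and IRS2 at 3.55, 4.04 and 3.04 CPM per kb in the same order of groups.

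The receptors split, with both IGF receptors higher in ACSS2-KO-3 and INSR not passing the test. IGF1R (ENSG00000140443, chromosome 15, 98648539 to 98964530), the kinase receptor of IGF1 and IGF2, measured 124, 132 and 138 CPM in ACSS2-KO-2, 175, 166 and 177 CPM in ACSS2-KO-3, and 123, 146 and 135 CPM in NC. It rose by 0.36 in ACSS2-KO-3 (SE 0.060, edgeR adjusted p 8.54e-06) and by 0.34 with the offsets. IGF2R (ENSG00000197081, chromosome 6, 159969099 to 160113507) measured 212, 247 and 241 CPM in ACSS2-KO-2, 401, 351 and 385 CPM in ACSS2-KO-3, and 192, 238 and 253 CPM in NC. It rose by 0.73 in ACSS2-KO-3 (SE 0.074, edgeR adjusted p 2.05e-09) and by 0.77 with the offsets, the highest fold change among the 8. For both IGF receptors the ACSS2-KO-3 libraries lay above all others and ACSS2-KO-2 overlapped NC, where the log2 fold change was -0.04 for IGF1R (edgeR adjusted p 0.805) and 0.03 for IGF2R (0.865).

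INSR (ENSG00000171105, chromosome 19, 7112255 to 7294034), the insulin receptor, measured 4.004, 4.41 and 4.64 CPM in ACSS2-KO-2, 4.25, 3.22 and 3.84 CPM in ACSS2-KO-3, and 2.87, 2.98 and 3.81 CPM in NC. The ACSS2-KO-2 libraries lay above NC, and ACSS2-KO-3 overlapped both. Its log2 fold change was 0.43 in ACSS2-KO-2 (SE 0.18, edgeR adjusted p 0.184) and 0.22 in ACSS2-KO-3 (0.318), so neither passed. Per length, INSR stood at 0.0441 ± 0.00101 of IGF1R in ACSS2-KO-2, 0.0290 ± 0.00318 in ACSS2-KO-3 and 0.0320 ± 0.00522 in NC (SD, n = 3 each), the less abundant receptor in all 9 libraries.

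The PI3K subunits moved in opposite directions in ACSS2-KO-3. PIK3CA (ENSG00000121879, chromosome 3, 179148114 to 179240093), which encodes the catalytic subunit p110alpha, measured 40.04, 41.3 and 48.5 CPM in ACSS2-KO-2, 7.71, 12.5 and 12.4 CPM in ACSS2-KO-3, and 46.8, 46.8 and 44.9 CPM in NC. All 3 ACSS2-KO-3 libraries lay far under the 6 others, which overlapped. The log2 level of PIK3CA fell by 2.09 in ACSS2-KO-3 (SE 0.11, edgeR adjusted p 8.15e-15), and with the offsets by 0.85 (8.3e-10). PIK3R1 (ENSG00000145675, chromosome 5, 68215720 to 68301821), the regulatory subunit p85alpha that stabilises p110alpha, measured 21.2, 19.5 and 21.3 CPM in ACSS2-KO-2, 7.78, 11.2 and 10.8 CPM in ACSS2-KO-3, and 20.5, 22.3 and 25.03 CPM in NC. The order of the groups was that of PIK3CA. PIK3R1 fell by 1.19 in ACSS2-KO-3 (SE 0.115, edgeR adjusted p 8.13e-10), and with the offsets by 0.59 (1.54e-05).

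PIK3R3 (ENSG00000117461, chromosome 1, 46040140 to 46133036), the regulatory subunit p55gamma, measured 37.1, 37.5 and 39.6 CPM in ACSS2-KO-2, 44.4, 48.3 and 48.5 CPM in ACSS2-KO-3, and 42.9, 41.6 and 42.4 CPM in NC. The groups did not overlap, with ACSS2-KO-2 lowest and ACSS2-KO-3 highest. Its log2 fold change of 0.16 in ACSS2-KO-3 only just passed (SE 0.066, edgeR adjusted p 0.0434), and was 0.20 with the offsets (0.00592). That call was lost without NC replicate 1, 2 or 3 (adjusted p 0.0559, 0.0853 and 0.0595), without ACSS2-KO-3 replicate 2 or 3 (0.0967 and 0.107), without the low-count filter (0.0868) and when the 2 groups were fitted alone (0.0614). In ACSS2-KO-2 the value was -0.15 (adjusted p 0.206).

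The balance between the subunits shifted with these changes. Per length, PIK3CA stood at 2.38 ± 0.223 times PIK3R1 in ACSS2-KO-2, 1.23 ± 0.0955 times in ACSS2-KO-3 and 2.33 ± 0.277 times in NC (SD, n = 3 each). PIK3R1 stood at 0.374 ± 0.0188 of PIK3R3 in ACSS2-KO-2, 0.144 ± 0.0208 in ACSS2-KO-3 and 0.368 ± 0.0385 in NC. In both ratios the ACSS2-KO-3 libraries lay under all others and ACSS2-KO-2 overlapped NC. These ratios hold no correction for GC content, which differs between the genes: the longest transcript of PIK3CA has 34.8% and that of PIK3R1 40.3%, against 45.8% for PIK3R3.

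**Figure D4:**
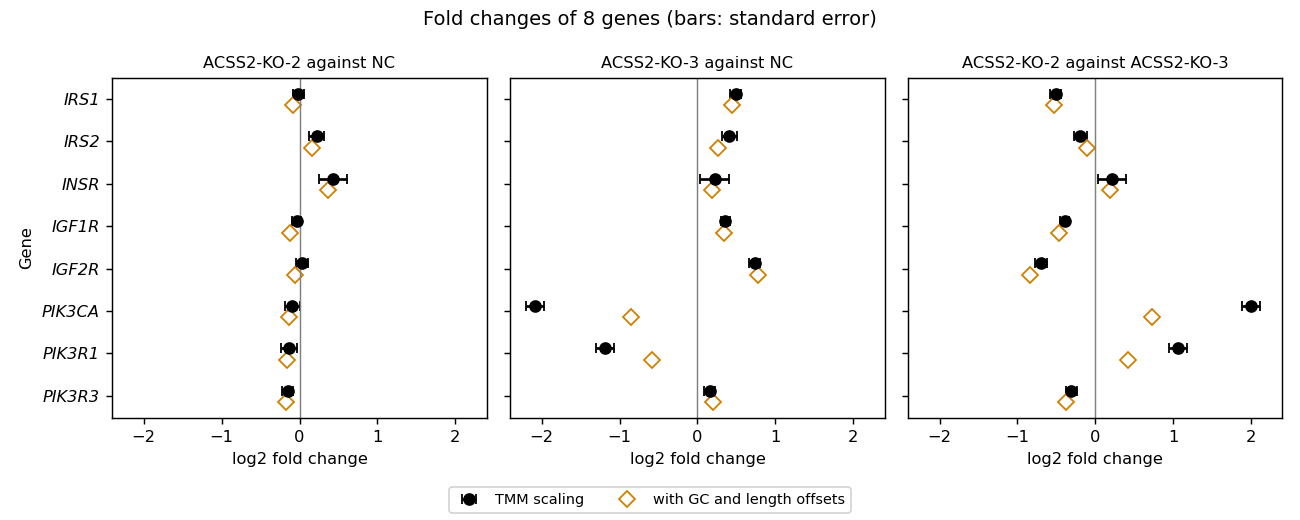
Log2 fold changes of the 8 genes other than IRS4 in the 3 comparisons, as circles with standard errors, with open diamonds for the fit with GC content and length offsets. The ACSS2-KO-2 against NC values lie near 0, and PIK3CA and PIK3R1 are lower in ACSS2-KO-3, less so with the offsets (-0.85 against -2.09 for PIK3CA).

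GC content moved with the ACSS2-KO-3 values of these genes. Among all tested genes under 40% GC, 78.8% were called lower in ACSS2-KO-3 than in NC and the median log2 fold change was -0.86, whereas the median was 0.25 in genes of 60% GC or more. PIK3CA is in the first of these classes. The members that rose in ACSS2-KO-3 had 45.8% (PIK3R3) to 58.7% (IRS2) GC. With the offsets the same 5 genes were higher and the same 2 lower in ACSS2-KO-3 than in NC. The part of GC content in what remains of each value was not tested further.

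**Figure D5:**
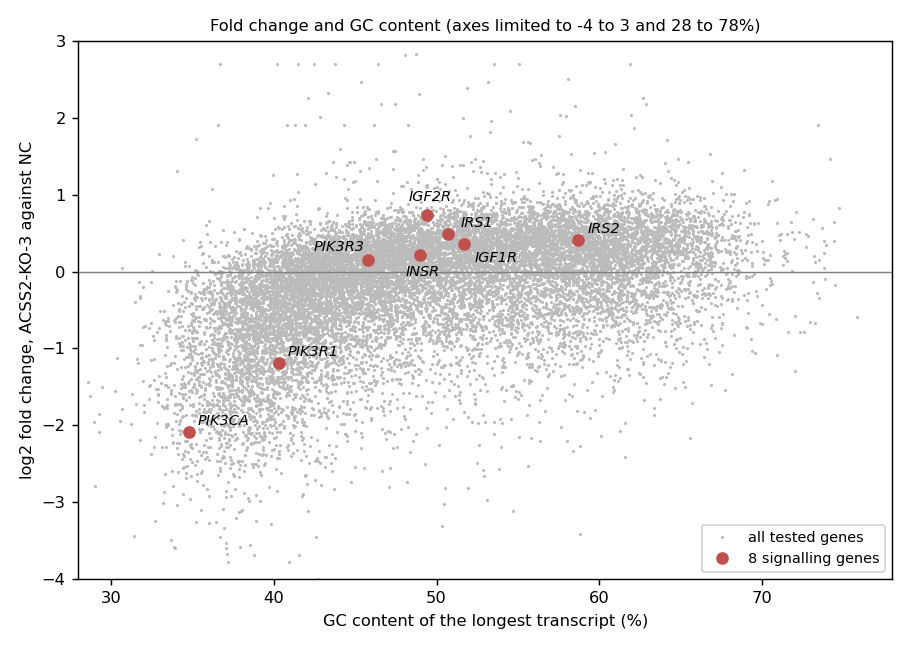
Log2 fold change of ACSS2-KO-3 against NC versus GC content of the longest transcript (%) for all tested genes in grey and the 8 genes in red, with the axes limited as the title states. PIK3CA at 34.8% GC and PIK3R1 at 40.3% GC lie at -2.09 and -1.19, where many genes of similar GC content are also lower.

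The direct difference of ACSS2-KO-2 from ACSS2-KO-3 passed for 6 of the 8 genes. IRS1, IGF1R, IGF2R and PIK3R3 were lower in ACSS2-KO-2, with log2 fold changes of -0.51, -0.40, -0.70 and -0.31 and edgeR adjusted p from 5.35e-09 to 0.000255. Their values with the offsets were -0.53, -0.46, -0.83 and -0.38. PIK3CA and PIK3R1 were higher in ACSS2-KO-2, by 1.99 (edgeR adjusted p 2.4e-14) and 1.06 (8.88e-09), and with the offsets by 0.72 and 0.42 (adjusted p 0.00119 for PIK3R1). IRS2 (-0.19, adjusted p 0.063) and INSR (0.21, 0.327) did not pass. IRS2 passed without ACSS2-KO-2 replicate 2 or 3 or without ACSS2-KO-3 replicate 3, at -0.26 (adjusted p 0.0267 to 0.0305). IRS4 was 15.2-fold higher in ACSS2-KO-2 than in ACSS2-KO-3, given without a test.

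Further PI3K subunits and the phosphatases that oppose them were followed as a list of 18, of which 12 were tested. In ACSS2-KO-2 against NC, 0 were higher and 1 lower (median -0.07), against 3.81% and 2.84% of all tested genes. The lower gene was PIK3CD, the leukocyte-type catalytic subunit p110delta, at 25.8 ± 0.339 CPM in ACSS2-KO-2 and 30.7 ± 0.643 CPM in NC (-0.25, edgeR adjusted p 0.035). This call was lost when any NC or ACSS2-KO-2 library was left out (adjusted p 0.071 to 0.149). With all 9 libraries it was also lost under RLE scaling (edgeR adjusted p 0.0509), without the low-count filter (edgeR adjusted p 0.103) and with DESeq2 (adjusted p 0.101). In ACSS2-KO-3 against NC, 1 was higher and 5 lower, against 31.2% and 32.1% of all tested genes, and with the GC content and length offsets 4 were higher and 3 lower, against 35.5% and 24.5% (median -0.10 without and 0.01 with the offsets, beside -0.04 and 0.05 over all tested genes). PIK3C2A, a class II enzyme that acts in endocytosis, fell by 1.99 in ACSS2-KO-3 (22.5 ± 5.35 CPM, against 89.6 ± 3.44 CPM in NC, edgeR adjusted p 2.98e-15), and with the offsets by 1.02. PIK3IP1, a transmembrane inhibitor of PI3K, fell by 1.19 in ACSS2-KO-3 (3.01 ± 0.366 CPM, against 6.84 ± 0.759 CPM in NC, edgeR adjusted p 9.97e-07), and with the offsets by 1.33. PIK3C2B, another class II enzyme, rose by 0.32 (edgeR adjusted p 0.00151; 0.20 with the offsets). INPP4B, a phosphatase of PI3K lipid products, had 10.1 ± 0.614 CPM in ACSS2-KO-3 and 16.2 ± 0.314 CPM in NC, and its log2 fold change of -0.68 turned to 0.30 with the offsets.

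Of 22 genes of AKT and its targets, all tested, 3 were higher and 0 lower in ACSS2-KO-2 against NC and 13 were higher and 4 lower in ACSS2-KO-3 (15 and 4 with the offsets). All tested genes gave 3.81% higher and 2.84% lower in ACSS2-KO-2, and 31.2% higher and 32.1% lower in ACSS2-KO-3, and 35.5% and 24.5% with the offsets. The list's median log2 fold change was 0.03 in ACSS2-KO-2, and for ACSS2-KO-3 it was 0.41, beside 0.00 and -0.04 over all tested genes. The ACSS2-KO-3 median with the offsets was 0.29, beside 0.05 over all tested genes. FOXO1, the transcription factor that AKT inactivates, averaged 4.71 ± 0.534 CPM in ACSS2-KO-2, 5.39 ± 0.615 CPM in ACSS2-KO-3 and 3.11 ± 0.261 CPM in NC. It rose by 0.79 in ACSS2-KO-3 (edgeR adjusted p 0.000261), and by 0.80 with the offsets. Its rise of 0.59 in ACSS2-KO-2 (edgeR adjusted p 0.0371) was lost when any NC or ACSS2-KO-2 library was left out (0.0501 to 0.189). That rise also did not pass with DESeq2 (adjusted p 0.0695) or limma-voom (adjusted p 0.0536). RICTOR, the scaffold of the kinase complex mTORC2, which phosphorylates AKT, fell by 2.38 in ACSS2-KO-3 (8.57 ± 2.18 CPM, against 44.8 ± 1.84 CPM in NC, edgeR adjusted p 6.01e-16), and with the offsets by 1.32. AKT1S1, an AKT substrate that restrains mTORC1, rose by 0.80 in ACSS2-KO-3 (185 ± 7.10 CPM, against 107 ± 3.32 CPM in NC, edgeR adjusted p 5.76e-13), and with the offsets by 0.59.

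Of 21 receptor adaptors, 19 were tested. In ACSS2-KO-2 against NC, 1 was higher and 1 lower, and in ACSS2-KO-3 5 were higher and 6 lower (6 and 6 with the offsets), with medians of 0.01 and 0.05. The ACSS2-KO-3 median with the offsets was -0.09, beside 0.05 over all tested genes. The shares over all tested genes were 3.81% higher and 2.84% lower in ACSS2-KO-2. For ACSS2-KO-3 they were 31.2% and 32.1%, so 11 of 19 is near that background. With the offsets the ACSS2-KO-3 shares were 35.5% and 24.5%. FYN, a kinase of the SRC family, averaged 4.65 ± 0.748 CPM in ACSS2-KO-2 and 1.56 ± 0.620 CPM in NC and rose by 1.57 (edgeR adjusted p 8e-05). SOS1, the exchange factor that links receptors to RAS, fell by 1.17 in ACSS2-KO-3 (35.0 ± 4.90 CPM, against 78.7 ± 2.90 CPM in NC, edgeR adjusted p 4.63e-13), and with the offsets by 0.26. SHC2 fell by 1.33 there (edgeR adjusted p 1.92e-07), and with the offsets by 1.55, while the adaptors SH2B3 and CRKL rose by 0.71 and 0.62 (1.64e-10 and 1.4e-10), and with the offsets by 0.55 and 0.52.

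Of 15 inhibitors of the receptors, 14 were tested, with 3 higher and 0 lower in ACSS2-KO-2 against NC and 7 higher and 4 lower in ACSS2-KO-3 (6 and 2 with the offsets), and medians of 0.04 and 0.13. Against these counts stand 3.81% and 2.84% of all tested genes in ACSS2-KO-2, and for ACSS2-KO-3 31.2% and 32.1%. For ACSS2-KO-3 with the offsets the shares were 35.5% and 24.5%, and the list's median was 0.09, beside 0.05 over all tested genes. PTPRF, a receptor phosphatase, rose by 0.33 in ACSS2-KO-2 (157 ± 6.93 CPM, against 126 ± 16.0 CPM in NC, edgeR adjusted p 0.00189). SOCS2, a suppressor of cytokine and growth factor signalling, rose by 0.25 there (edgeR adjusted p 0.0338), which no longer passed on leaving out any NC library or replicate 2 or 3 of ACSS2-KO-2 (0.0589 to 0.194). PTPN1, the phosphatase PTP1B that acts on the insulin receptor, rose by 0.62 in ACSS2-KO-3 (95.0 ± 4.26 CPM, against 61.8 ± 1.68 CPM in NC, edgeR adjusted p 1.44e-09), and with the offsets by 0.51. The ubiquitin ligase CBL rose by 0.50 in ACSS2-KO-3 (edgeR adjusted p 6.56e-08; 0.64 with the offsets), and the ubiquitin ligase NEDD4 fell by 1.58 (4.63e-14), or by 0.69 with the offsets. CBLB fell by 0.56 in ACSS2-KO-3 (edgeR adjusted p 0.000661), a call lost with the offsets (-0.07, 0.672). GRB14, an adaptor that binds and inhibits the insulin receptor and was named after its values were seen, had 15 counts over the ACSS2-KO-2 libraries and none in ACSS2-KO-3 or NC.

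Of 19 ligands, binding proteins and their regulators, 12 were tested, with 2 higher and 3 lower in ACSS2-KO-2 against NC and 1 higher and 6 lower in ACSS2-KO-3 (1 and 7 with the offsets). Of all tested genes 3.81% and 2.84% were so called in ACSS2-KO-2, and for ACSS2-KO-3 31.2% and 32.1%, or 35.5% and 24.5% with the offsets. 1 of the 2 genes called higher in ACSS2-KO-2, IGFBP5, was at 0 in NC. It could pass the low-count filter only through ACSS2-KO-2, so its call is not to be read against these shares. In ACSS2-KO-3, 7 of 12 is near the 63.3% of both directions together, but the calls leaned to the lower side. The list was chosen with earlier results known, so nothing is read from this. The medians were -0.03 in ACSS2-KO-2 against NC and -0.32 in ACSS2-KO-3 against NC. Both take IGFBP5 at its fitted value, which the counts of 0 in NC do not fix. With the offsets the ACSS2-KO-3 median was -0.21, beside 0.05 over all tested genes. INS and IGF1, the genes of insulin and IGF1, had no count in any library. IGFBP5, a secreted IGF binding protein, had 117 counts over the ACSS2-KO-2 libraries, 3 over ACSS2-KO-3 and 0 in NC, which puts ACSS2-KO-2 at least 12.6-fold above the NC floor. IGF2 averaged 3.38 ± 0.989 CPM in ACSS2-KO-2 and 1.61 ± 0.885 CPM in NC, a rise of 1.05 (edgeR adjusted p 0.049). That call was lost on leaving out NC replicate 1 or 2, replicate 2 or 3 of ACSS2-KO-2, or ACSS2-KO-3 replicate 3 (0.0573 to 0.278). It was also lost with DESeq2 (adjusted p 0.0662). HTRA1, a secreted protease that cleaves IGF binding proteins, fell by 0.65 in ACSS2-KO-2 (9.88 ± 0.752 CPM, against 15.5 ± 1.38 CPM in NC, edgeR adjusted p 0.000161). IGFBP3 fell by 0.48 there (edgeR adjusted p 0.0117), which no longer passed on leaving out NC replicate 3 (0.0553) or ACSS2-KO-2 replicate 2 (0.0813). IDE, the insulin-degrading enzyme, fell by 0.72 in ACSS2-KO-3 (56.1 ± 9.41 CPM, against 92.7 ± 4.29 CPM in NC, edgeR adjusted p 1.25e-08), but its value with the offsets was 0.03. IGF2BP3, which binds IGF2 messenger RNA, fell by 0.60 (edgeR adjusted p 8.38e-08), a call that also ended with the offsets (-0.05, 0.486).

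Of 16 genes known as targets of FOXO factors, 14 were tested, with 1 higher and 3 lower in ACSS2-KO-2 against NC and 2 higher and 9 lower in ACSS2-KO-3 (2 and 7 with the offsets), and medians of -0.14 and -0.33. Beside them, 3.81% of all tested genes were higher and 2.84% lower in ACSS2-KO-2, and 31.2% were higher and 32.1% lower in ACSS2-KO-3. For ACSS2-KO-3 with the offsets the shares were 35.5% and 24.5%, and the list's median was -0.17, beside 0.05 over all tested genes. The list was chosen with earlier results of these data known, so nothing particular to these targets is read from the counts. SESN3, a stress-induced sestrin, rose by 2.07 in ACSS2-KO-2 (3.41 ± 0.205 CPM, against 0.805 ± 0.209 CPM in NC, edgeR adjusted p 1.36e-05). TNFSF10, the death ligand TRAIL, averaged 1.62 ± 0.532 CPM in ACSS2-KO-2, 0.605 ± 0.0814 CPM in ACSS2-KO-3 and 4.42 ± 0.304 CPM in NC. Its log2 level fell by 1.43 in ACSS2-KO-2 (edgeR adjusted p 0.000113). In ACSS2-KO-3 it fell by 2.85 (1.14e-09), and with the offsets by 2.26. BCL2L11, the apoptosis gene BIM, fell by 0.50 in ACSS2-KO-2 (edgeR adjusted p 0.000135). In ACSS2-KO-3 the cyclin gene CCNG2 fell by 1.48 (9.04 ± 0.545 CPM, against 25.2 ± 2.54 CPM in NC, edgeR adjusted p 1.06e-12; with the offsets by 0.95) and the transcriptional cofactor CITED2 rose by 0.60 (138 ± 4.98 CPM, against 91.1 ± 4.89 CPM in NC, 7.47e-10; 0.54 with the offsets). SOD2, the mitochondrial superoxide dismutase, rose by 0.19 there (edgeR adjusted p 0.00877), and by 0.76 with the offsets.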

How the data were processed

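Polyadenylated RNA was sequenced in 9 libraries, grouped by their titles, since the treatment labels number the knockouts up to ACSS7-KO. The authors deposited whole-number counts per gene, unscaled. The submitters' processing notes name cutadapt 1.9, HISAT2 2.2.1, StringTie 2.1.6, DESeq2, edgeR and GRCh38. How the counting was done, strand setting included, is not given in these sources. Positions match GENCODE release 29.

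In R 4.3.3, edgeR 4.0.16 scaled the counts by TMM and filterByExpr filtered them (minimum count 10, minimum total 15), which left 15811 genes with a common dispersion of 0.00291. Levels are CPM with these factors. 1 quasi-likelihood model of the 9 libraries gave 6 residual degrees of freedom. Tests were 2-sided, with Benjamini-Hochberg adjustment across the whole tested table. They were tried on simulated data that held no GC trend and changed only genes well expressed in NC. That trial does not cover the GC trend of ACSS2-KO-3 or genes at 0 in NC. Offsets were natural splines of GC content and length of the longest transcript. Alternatives were RLE scaling, no low-count filter, DESeq2 1.42.0, limma-voom 3.58.1, a replicate block, the offsets, a fit on the compared groups, and leaving out each library.

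The members and lists were chosen with earlier results of these data known. Per list, comparison and direction, up to 2 called genes of the largest fold that reached 1 CPM were eligible for naming. Some eligible genes are not reported here. The transcript of X inactivation, its antisense partner and Y-linked genes were left out of the genes like IRS4 and of the genes absent from NC, a choice made after that ranking was seen. Residual correlations of libraries with the same number ran from -0.0703 to 0.0924, so numbers were not used as pairs. Replicates differed by more than counting noise in each pair. The labels give no batch.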

Additional observations from a re-analysis of the deposited data

Results flagged for a closer look

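Besides IRS4, 6 of the 8 genes differed between ACSS2-KO-2 and ACSS2-KO-3 by a direct test of that difference (edgeR quasi-likelihood test, adjusted over all tested genes), in a comparison in which 61.7% of all tested genes differed. The log2 differences, ACSS2-KO-2 over ACSS2-KO-3, were -0.51 for IRS1, -0.40 for IGF1R, -0.70 for IGF2R and -0.31 for PIK3R3, each lower in ACSS2-KO-2. With the GC content and length offsets these were -0.53, -0.46, -0.83 and -0.38. The log2 differences were 1.99 for PIK3CA and 1.06 for PIK3R1, both higher in ACSS2-KO-2, and 0.72 and 0.42 with the offsets.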

How the results depend on the processing

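Of 384 values of the 8 genes under the alternatives, 373 kept their side of the threshold, and where called also their direction. Of 1775 values of named pathway genes 1701 did. Values that did not pass could change sign and still be counted as kept. An example is IRS1 in ACSS2-KO-2 against NC, with log2 fold changes from -0.10 to 0.07. The count of the 8 genes that passed in ACSS2-KO-2 against NC was 0 to 1 over the left-out libraries, with IRS2 passing without ACSS2-KO-2 replicate 1. With the replicate block 0 of the 8 passed in ACSS2-KO-2 against NC, 7 in ACSS2-KO-3 against NC and 6 between the knockout groups, as without it, although the numbers did not pair the libraries. With the GC content and length offsets INPP4B reversed to 0.30 in ACSS2-KO-3 against NC and -0.22 in ACSS2-KO-2 against ACSS2-KO-3, and IDE to 0.028 and -0.025. Over the whole table, 1052 genes were called in ACSS2-KO-2 against NC, 666 without ACSS2-KO-2 replicate 2 and 1491 with the offsets. In ACSS2-KO-2 against ACSS2-KO-3 the offsets moved the split of calls to 3543 higher and 5524 lower, from 4820 higher and 4936 lower. The cause was not tested. Genes that missed the minimum count of 10 could not be tested at this depth.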
